A study of Homo sapiens with 4 samples.

Results

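The Hippo kinase core genes described here are STK3 and STK4, SAV1, LATS1 and LATS2, MOB1A and MOB1B, and the upstream regulators NF2, WWC1 and TAOK1. They were chosen by gene symbol, with earlier results of these data known. These 10 genes are part of the 48162 genes listed for MDA-MB-231 breast cancer cells treated with the TEAD inhibitor MGH-CP1 or vehicle. All 10 were expressed. After MGH-CP1, 7 of the 10 fell, against 23.8% of all genes tested, and none rose, against 27.1%. WWC1 fell furthest, to 65.5% of its vehicle level. The falls of the other 6 were smaller, leaving 79.4% to 88.1% of the vehicle level.

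MDA-MB-231 is a human triple-negative breast cancer line with a mesenchymal form, and it is known to carry a truncating mutation of NF2. The cells were grown in DMEM with 10% FBS and treated for 24 h with vehicle control (2 libraries) or with MGH-CP1 at 10 µM by the sample labels (2 libraries), whereas the methods give 10 mM. MGH-CP1 blocks palmitoylation of the TEAD transcription factors. Polyadenylated RNA was sequenced, and the deposited values are FPKM, the fragments of a gene scaled to its length and to the depth of the library. Since nothing states whether the 2 libraries of a group came from separate cultures, the p-values measure only the spread between libraries, which may be technical.

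In the Hippo pathway, the kinases MST1 and MST2, encoded by STK4 and STK3, bind the scaffold SAV1 and phosphorylate LATS1, LATS2 and the MOB1 adaptors. Activated LATS kinases phosphorylate YAP and TAZ, which are then held in the cytoplasm and degraded instead of joining TEAD factors on DNA. Merlin, the product of NF2, and KIBRA, the product of WWC1, bring the kinases to the cell cortex, and TAOK1 phosphorylates the MST kinases. LATS2 and NF2 are known as genes that YAP itself can induce, so that the pathway restrains its own output. The comparison of MGH-CP1 with vehicle therefore asks how the RNA of the kinase core stood when TEAD was inhibited.

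The promoters of LATS2 and WWC1 are shown beside that of CTGF, because LATS2 is the core gene best known as a YAP target, WWC1 is the member that changed most, and CTGF is a classical TEAD target. Each window runs from 250 bases before to 50 bases after the RefSeq gene start (build GRCh38.p14), 5′ to 3′ on the strand of the gene. Capitals mark the letters of the TEAD motif GGAATG, searched on both strands, so that CATTCC is the same motif read on the other strand. LATS2 lies at chr13:21061537-21061836 on the minus strand, WWC1 at chr5:168291395-168291694 on the plus strand and CTGF, which RefSeq names CCN2, at chr6:131951323-131951622 on the minus strand.
LATS2: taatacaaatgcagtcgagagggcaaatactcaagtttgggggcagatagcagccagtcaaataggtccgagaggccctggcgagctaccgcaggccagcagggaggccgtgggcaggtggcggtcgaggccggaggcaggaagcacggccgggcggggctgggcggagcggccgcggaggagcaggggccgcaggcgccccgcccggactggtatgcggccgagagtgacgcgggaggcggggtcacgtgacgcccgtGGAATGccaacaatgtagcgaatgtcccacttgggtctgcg
WWC1: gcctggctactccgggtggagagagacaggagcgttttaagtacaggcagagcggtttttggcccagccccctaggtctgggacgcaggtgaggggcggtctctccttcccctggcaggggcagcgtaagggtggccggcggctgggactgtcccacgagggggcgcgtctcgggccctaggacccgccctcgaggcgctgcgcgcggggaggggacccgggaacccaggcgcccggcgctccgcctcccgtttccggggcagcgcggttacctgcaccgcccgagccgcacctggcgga
CTGF: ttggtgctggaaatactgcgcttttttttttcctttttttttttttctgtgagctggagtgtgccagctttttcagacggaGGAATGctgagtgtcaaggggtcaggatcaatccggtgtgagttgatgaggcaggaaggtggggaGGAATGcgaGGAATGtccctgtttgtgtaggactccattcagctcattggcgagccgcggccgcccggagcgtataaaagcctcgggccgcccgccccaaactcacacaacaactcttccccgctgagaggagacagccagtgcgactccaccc

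The CTGF window held 3 matches, the LATS2 window 1, at bases 260 to 265 of the window and hence after the gene start, and the WWC1 window 0. Windows were found for 9 of the 10 members, and none for STK3. Among the 13 windows of these 9 members, some genes having more than 1 start, only that of LATS2 held the motif. Of all 35116 RefSeq promoter windows of this length, 14.0% held it. A match describes the letters only, and a window without the motif says nothing about TEAD elsewhere at the gene.

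The core genes spanned a wide range of RNA levels. In the vehicle libraries the order of mean FPKM was MOB1A, SAV1, STK4, TAOK1, WWC1, LATS2, MOB1B, STK3, LATS1 and NF2. The neighbours TAOK1 and WWC1, and STK3 and LATS1, had overlapping ranges and did not differ beyond the spread between libraries, although the order held within each vehicle library. MOB1A, with a level above that of 92.3% of the 12080 genes tested, stood far above its paralog MOB1B, while NF2 exceeded only 13.2% of them. After MGH-CP1 the order was the same except that LATS1 lay above STK3 in both libraries, by less than the spread between them. The ranges of WWC1 and TAOK1, which overlapped in vehicle, were then separate, with WWC1 the lower.

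**Figure D1:**
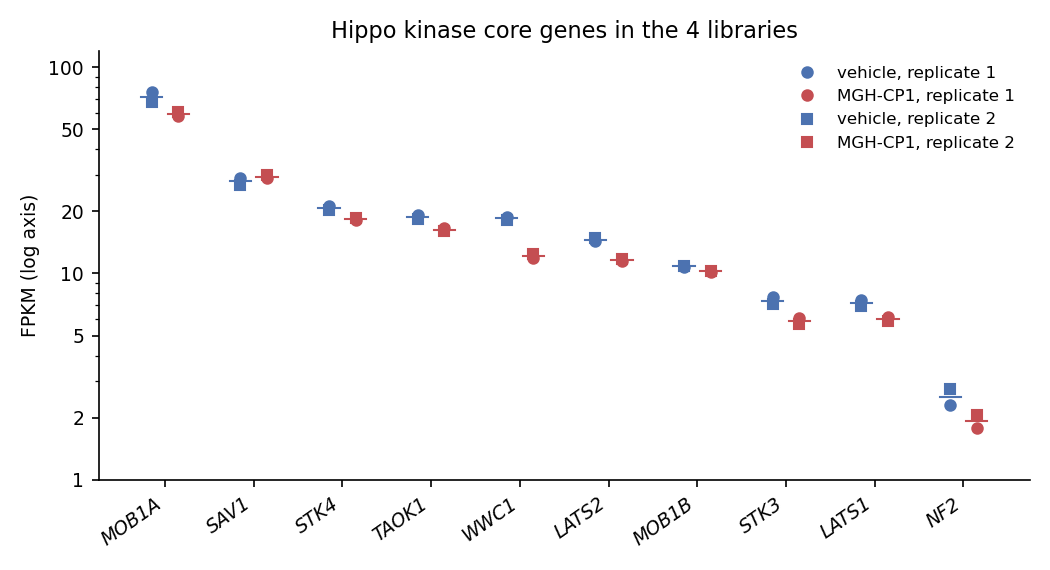
FPKM of each Hippo kinase core gene on a log axis, with 1 point per library and a short line at the mean of each group of 2 libraries. The MGH-CP1 points lie below the vehicle points for 9 of the 10 genes, and for SAV1 they overlap.

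By limma on log2(FPKM + 1), with Benjamini-Hochberg adjustment over all 12080 genes whose FPKM averaged 1 or more, 7 of the 10 members were lower at an adjusted p under 0.05. Of all genes tested, 23.8% were lower by the same rule. No member was higher, against 27.1% of all genes tested. Counting either direction, 6911 of the 12080 genes, among them the same 7 members, had an unadjusted p under 0.05. Both MGH-CP1 libraries lay below both vehicle libraries for 9 of the 10 members, against 37.4% of all genes, and above them for 0 members, against 39.8%. The median log2 fold change was -0.24 over the members and 0.01 over all genes tested. Changes are fold changes of FPKM + 1, which understates those of low genes such as NF2. In bulk RNA, a change in every cell and a change in some cells cannot be told apart.

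The conditions also differed in ways other than these genes. The vehicle libraries held 25455533 and 25508824 fragments on listed genes and the MGH-CP1 libraries 17997221 and 17577930, and mitochondrial genes took 0.418% to 0.447% of fragments in vehicle and 1.53% to 1.57% after MGH-CP1. When all libraries were thinned to the same depth, 6 members were lower, against 23.2% of all genes at that depth. STK4 then had a log2 fold change of -0.16 and a limma adjusted p of 0.0521, against -0.17 at full depth. The part of the mitochondrial share in these results was not tested. The mesenchymal markers VIM (259 to 281 FPKM) and CD44 (198 to 221 FPKM) were high in all 4 libraries, while ESR1 stayed at or below 0.0243 FPKM, PGR at or below 0.00286 FPKM and CDH1 at 0.289 to 0.638 FPKM. Other epithelial markers were expressed, with EPCAM at 12.4 to 16.4 FPKM and KRT18 at 115 and 114 FPKM in vehicle and 86.8 and 93.2 FPKM after MGH-CP1, a fall of 0.35 on the log2 scale (SE 0.05, limma adjusted p = 0.000926), and ERBB2 lay at 24.7 to 28.4 FPKM. The part of KRT18 in the results was not tested. Of markers of other cell types, CD3E was at 0, PTPRC at or below 0.0321 FPKM and CD68 at or below 0.0209 FPKM, and COL1A1 lay between 1.31 and 1.83 FPKM. ALB was at 0 in both vehicle libraries, 0.0737 FPKM in MGH-CP1 replicate 1 and 2.56 FPKM in MGH-CP1 replicate 2. PECAM1 was also planned as a marker but has no value here.

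Among the MST kinases, STK4 (ENSG00000101109, chr20:43595115-43708600, hg19, plus strand) was the more abundant. It measured 21.3 and 20.2 FPKM in the vehicle libraries and 18.1 and 18.5 FPKM after MGH-CP1, so that the groups were separate but close. STK4 fell by 0.17 on the log2 scale (SE 0.06, limma adjusted p = 0.0345), to 88.1% of its vehicle mean. STK3 (ENSG00000104375, chr8:99413631-99955055, hg19, minus strand) measured 7.67 and 7.09 FPKM in vehicle and 6.05 and 5.66 FPKM after MGH-CP1. Both treated libraries were thus more than 1 FPKM below the vehicle libraries. STK3 fell by 0.29 on the log2 scale (SE 0.08, limma adjusted p = 0.0156), from 7.38 ± 0.412 to 5.86 ± 0.275 FPKM (SD, n = 2).

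SAV1 (ENSG00000151748, chr14:51098776-51135049, hg19, minus strand), the scaffold that holds the MST kinases together and near LATS, was the only member with a fold change above 0, and it did not pass the test. Its FPKM values were 29.05 and 26.92 in vehicle and 29.04 and 29.87 after MGH-CP1, and the groups overlapped. The log2 fold change of SAV1 was 0.07 (SE 0.06, 95% interval -0.06 to 0.21), with a limma adjusted p of 0.328. A fall like that of LATS2 lies outside this interval. SAV1 overlaps 1011 bases of ATL1 on the opposite strand, and the strand used in counting is not given in the sources used here. ATL1 had 161 to 236 fragments per library against 1601 to 2265 for SAV1, and its own log2 fold change was 0.01. RP11-248J18.2 overlaps SAV1 over 668 bases on the same strand. It had 25 to 51 fragments per library and a log2 fold change of -0.13 (limma adjusted p = 0.424).

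Both LATS kinases, which phosphorylate YAP and TAZ directly, fell. LATS2 (ENSG00000150457, chr13:21547171-21635686, hg19, minus strand) measured 14.3 and 14.8 FPKM in vehicle and 11.5 and 11.7 FPKM after MGH-CP1. The gap between the groups was several times the gap within either of them. LATS2 fell by 0.30 on the log2 scale (SE 0.06, 95% interval -0.44 to -0.16, limma adjusted p = 0.0039), to 79.7% of the vehicle mean, with 1132 to 2080 fragments per library. LATS1 (ENSG00000131023, chr6:149979289-150039392, hg19, minus strand) measured 7.41 and 6.97 FPKM in vehicle and 6.16 and 5.87 FPKM after MGH-CP1. The groups did not overlap, and LATS1 fell by 0.22 (SE 0.07, 95% interval -0.40 to -0.05, limma adjusted p = 0.0367). The call of LATS1 was lost whenever any library was left out, whereas that of LATS2 was kept without each of the 4 libraries.

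The MOB1 adaptors, which bind LATS kinases and help to activate them, gave different values. MOB1A (ENSG00000114978, chr2:74382165-74406025, hg19, minus strand), the most abundant member, measured 75.9 and 67.7 FPKM in vehicle and 57.6 and 60.2 FPKM after MGH-CP1. MOB1A fell by 0.28 on the log2 scale (SE 0.06, limma adjusted p = 0.00712), to 82.1% of vehicle, and the vehicle libraries differed more from each other (SD 5.81, n = 2) than the treated libraries did (SD 1.84, n = 2). MOB1B (ENSG00000173542, chr4:71768043-71888166, hg19, plus strand) measured 10.7 and 10.9 FPKM in vehicle and 10.2 and 10.2 FPKM after MGH-CP1. Its groups did not overlap, but the log2 fold change of -0.07 (SE 0.06, 95% interval -0.22 to 0.07) did not pass the test (limma adjusted p = 0.348).

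MOB1B shares 29912 bases of its locus with DCK, deoxycytidine kinase, on the same strand. DCK had 1230 and 1111 fragments in vehicle and 584 and 589 after MGH-CP1, against 1251 to 1937 for MOB1B over the 4 libraries. DCK fell by 0.45 on the log2 scale (SE 0.07, limma adjusted p = 0.0011). How the counting shared out fragments of the overlap is not given in the sources used here, and the MOB1B values are uncertain to that extent. Of the 100-base words in GENCODE release 29 transcripts of MOB1B, 1.12% also occurred in DCK transcripts, and 1.59% of those of SAV1 occurred in another gene, against 0 for the other 8 members. The antisense gene LATS2-AS1, within LATS2, had at most 2 fragments in a library.

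Of the upstream regulators, WWC1 (ENSG00000113645, chr5:167718656-167899308, hg19, plus strand) changed most of all members. It measured 18.8 and 18.1 FPKM in vehicle and 11.8 and 12.4 FPKM after MGH-CP1, and the separation of the groups was wide. WWC1 fell by 0.57 on the log2 scale (SE 0.06, 95% interval -0.71 to -0.43, limma adjusted p = 0.000183), and 4.28% of all genes tested had a lower log2 fold change. Leaving out each library in turn gave log2 fold changes of -0.60 to -0.54, with the call kept each time.

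TAOK1 (ENSG00000160551, chr17:27717482-27878922, hg19, plus strand) measured 19.3 and 18.4 FPKM in vehicle and 16.61 and 15.98 FPKM after MGH-CP1. It fell by 0.20 on the log2 scale (SE 0.06, limma adjusted p = 0.0241), to 86.6% of vehicle. NF2 (ENSG00000186575, chr22:29999545-30094587, hg19, plus strand), the member with the lowest level, measured 2.30 and 2.75 FPKM in vehicle and 1.79 and 2.07 FPKM after MGH-CP1. Both treated libraries lay below both vehicle libraries, yet the libraries of each group also differed more from each other, relative to their mean, than those of most members. The log2 fold change of NF2 was -0.26 (SE 0.11, 95% interval -0.53 to 0.00094), which did not pass the test (limma adjusted p = 0.0884), on 194 to 422 fragments per library. With limma voom on the recovered fragments in place of FPKM + 1, NF2 was lower by 0.38 (adjusted p = 0.014). By that fit 8 members were lower in all, against 25.8% of all genes tested.

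**Figure D2:**
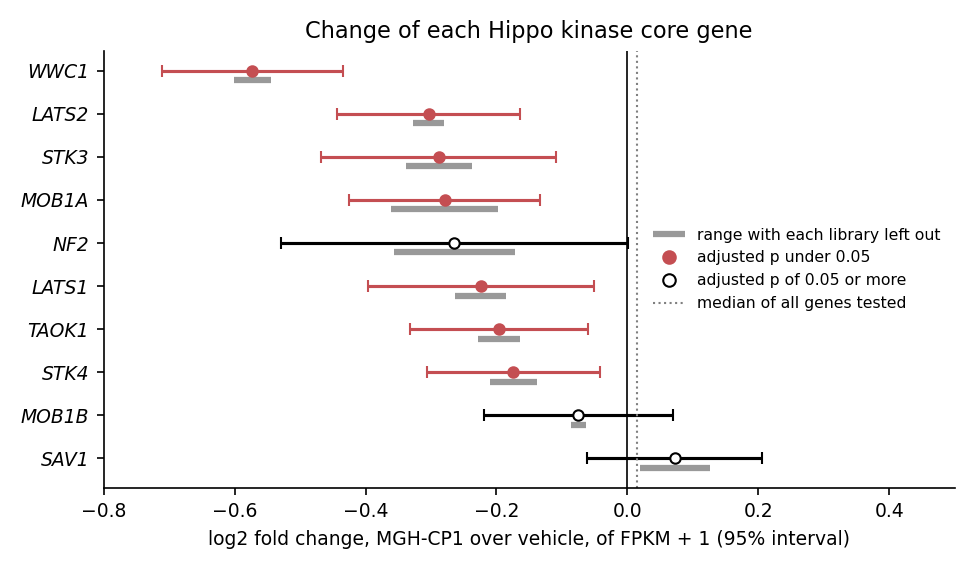
Log2 fold change of FPKM + 1 in MGH-CP1 over vehicle for each core gene, with the 95% interval of the limma fit (2 libraries per group), a grey bar for the range with each library left out, a dotted line at the median of all genes tested, and filled points for an adjusted p under 0.05. The interval of WWC1, -0.71 to -0.43, lies furthest from 0, and those of SAV1, MOB1B and NF2 include it.

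The call count rested on all 4 libraries. It was lower whenever a library was left out, as was the share of all genes called lower. The members' median log2 fold change was -0.24 without MGH-CP1 replicate 1 and -0.22 without MGH-CP1 replicate 2. It was -0.19 in the fit without vehicle replicate 1 and -0.25 in the fit without vehicle replicate 2. Of the called members, only LATS2 and WWC1 kept their calls in each of these fits. LATS1, STK3, STK4, MOB1A and TAOK1 lost theirs in some or all of them. With 2 libraries against 2, an exact permutation test of a single gene cannot go below p = 0.33, so each call draws on the variance that limma shares across genes. With no shared variance, 0 members passed at an adjusted p under 0.05. An unadjusted p under 0.05 was then found for 7 members, against 4947 of the 12080 genes tested. Those 7 included MOB1B, not called in the main test, and left out MOB1A, which was called there.

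The core holds pairs of paralogs, and their balance was compared within each library, as the log2 ratio of FPKM + 1. LATS2 exceeded LATS1 by 0.86 and 0.99 in vehicle and by 0.80 and 0.89 after MGH-CP1, overlapping ranges (difference -0.08, two-sided exact permutation p = 0.667, adjusted 0.667 over 3 pairs). STK3 stood below STK4, at -1.36 and -1.39 in vehicle and -1.44 and -1.55 after MGH-CP1 (difference -0.11, exact permutation p = 0.33, adjusted 0.5). MOB1B stood below MOB1A, at -2.71 and -2.53 in vehicle and -2.39 and -2.45 after MGH-CP1 (difference 0.20, exact permutation p = 0.33, adjusted 0.5). The last p is the smallest this design allows, so no shift in balance could pass the threshold. The summed FPKM of each pair was lower after MGH-CP1: LATS1 and LATS2 together went from 21.7 and 21.8 to 17.7 and 17.6, the MST kinases from 28.98 and 27.32 to 24.2 and 24.1, and the MOB1 adaptors from 86.7 and 78.6 to 67.9 and 70.5.

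**Figure D3:**
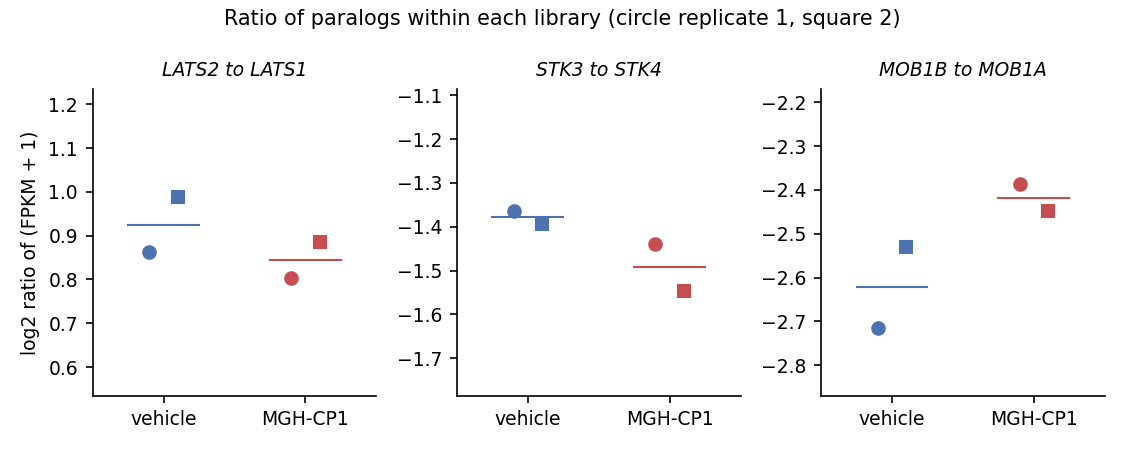
Log2 ratio of FPKM + 1 between paralogs in each library (circles replicate 1, squares replicate 2, lines the group means), 1 panel per pair, with y axes that differ in position but span the same range. The MGH-CP1 points lie below the vehicle points for STK3 over STK4 and above them for MOB1B over MOB1A, and those for LATS2 over LATS1 overlap.

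Across the whole table the log2 fold change was lower in longer genes, and most core genes are long. The tested genes were divided by listed length into 5 bins of equal size. In the longest bin, 5270 to 29630 bases, the median log2 fold change was -0.06 and 29.6% were called lower, against 0.12 and 16.7% in the shortest bin. Of the members, 8 lie in the longest bin, MOB1A (2375 bases) in the second shortest and SAV1 (3063 bases) in the middle one. With the length trend taken out of the values, an alternative chosen after the data were seen, 5 members were lower, all of them among the 7, while the share of all genes called lower was 27.3%. LATS1 then had a log2 fold change of -0.18 (limma adjusted p = 0.0703), and TAOK1, the longest member at 12407 bases, one of -0.07 (limma adjusted p = 0.331).

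**Figure D4:**
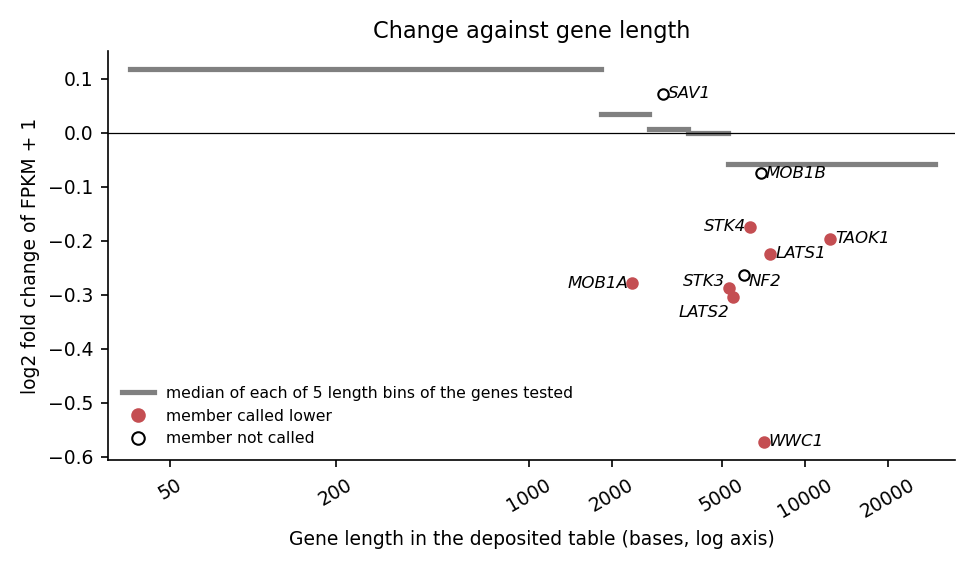
Log2 fold change of each core gene against the gene length listed in the table (bases, log axis), with the median of each of 5 equal length bins of all tested genes as a grey bar over its range of lengths. The medians run from 0.12 in the shortest bin to -0.06 in the longest, and WWC1, at -0.57, lies furthest below them.

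Other genes of the pathway, taken from 6 lists also chosen with earlier results of these data known, moved in both directions. Of 57 tested, 15 rose (26.3%, against 27.1% of all genes tested) and 18 fell (31.6%, against 23.8%). The upstream kinases can activate LATS beside or through the MST kinases. Of 9 listed, 8 were tested, and 5 rose (62.5%, against 27.1% of all genes) and 0 fell (against 23.8%), with a median log2 fold change of 0.24. TAOK3, another relative of TAOK1, overlapped between the groups (log2 fold change -0.01, limma adjusted p = 0.873), and MAP4K2 (0.14) and MAP4K5 (0.08) did not pass the test. TAOK2, a close relative of TAOK1, rose by 0.46 (SE 0.07, limma adjusted p = 0.00125), from 12.4 to 17.4 FPKM, and TNIK rose by 0.38 (SE 0.08, limma adjusted p = 0.00446). The others that rose were MAP4K4 (log2 fold change 0.33), MINK1 (0.25) and MAP4K3 (0.23). Apart from TAOK2 and TNIK, the genes of this list were named after their values were seen.

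Of 7 paralogs of the core tested, 3 rose (42.9%, against 27.1% of all genes) and 2 fell (28.6%, against 23.8%). Both relatives of WWC1 fell: WWC2 by 0.48 on the log2 scale (SE 0.07, limma adjusted p = 0.000592), from 13.4 to 9.33 FPKM, and WWC3 by 0.20 (SE 0.05, limma adjusted p = 0.0126), from 35.2 to 30.5 FPKM. Of the relatives of MOB1 in this list, MOB3C rose by 0.49 (SE 0.10), MOB2, which binds the LATS-related NDR kinases, by 0.48 (SE 0.08), and MOB3A by 0.31 (SE 0.05), the last named after its value was seen. MOB4, a relative in the STRIPAK list named after its value was seen, had a log2 fold change of -0.24 (SE 0.09), with both MGH-CP1 libraries below both vehicle libraries, and did not pass the test (limma adjusted p = 0.0558). The NDR kinases STK38 (-0.04) and STK38L (0.05) did not pass it either, and MOB3B was under the expression minimum.

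The STRIPAK complex carries the phosphatase PP2A to the MST kinases and keeps them inactive. Of its 18 genes tested, 1 rose (5.56%, against 27.1% of all genes) and 6 fell (33.3%, against 23.8%), with a median log2 fold change of -0.08. STRN, a striatin scaffold, fell by 0.36 (SE 0.08, limma adjusted p = 0.00471), and PPP2CA, a catalytic subunit of PP2A, fell by 0.32 (SE 0.06, limma adjusted p = 0.00188). The kinase STK25 rose by 0.42 (SE 0.06, limma adjusted p = 0.0011). Among the RASSF proteins, adaptors that bind the MST kinases, 4 of 6 were tested, and 2 rose (50%, against 27.1% of all genes) and 1 fell (25%, against 23.8%). RASSF4 rose by 0.58 (SE 0.09) and RASSF3 by 0.31 (SE 0.05), and RASSF1 fell by 0.42 (SE 0.07).

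The membrane and polarity regulators act at the cell cortex, upstream of or beside NF2 and WWC1. Of 12 tested, 8 fell (66.7%, against 23.8% of all genes) and 2 rose (16.7%, against 27.1%), and their median log2 fold change was -0.25. FAT1, a giant protocadherin, fell by 0.73 (SE 0.06, limma adjusted p = 5.7e-05), from 33.02 to 19.58 FPKM, and FRMD6, a FERM protein like merlin, fell by 0.65 (SE 0.05, limma adjusted p = 6.5e-05), from 48.4 to 30.6 FPKM. The tight junction gene TJP1 and the phosphatase PTPN14, named after their values were seen, each fell by 0.41. The polarity gene LLGL2 rose by 0.67 (SE 0.08), from 4.46 to 7.70 FPKM, and LLGL1 by 0.15 (SE 0.05, limma adjusted p = 0.0447). Of 8 genes for turnover of LATS and YAP/TAZ, 1 fell (12.5%, against 23.8% of all genes) and 2 rose (25%, against 27.1%). The ubiquitin ligase NEDD4 fell by 0.47 (SE 0.08), and the casein kinases CSNK1D and CSNK1E rose by 0.44 (SE 0.07) and 0.16 (SE 0.05).

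**Figure D5:**
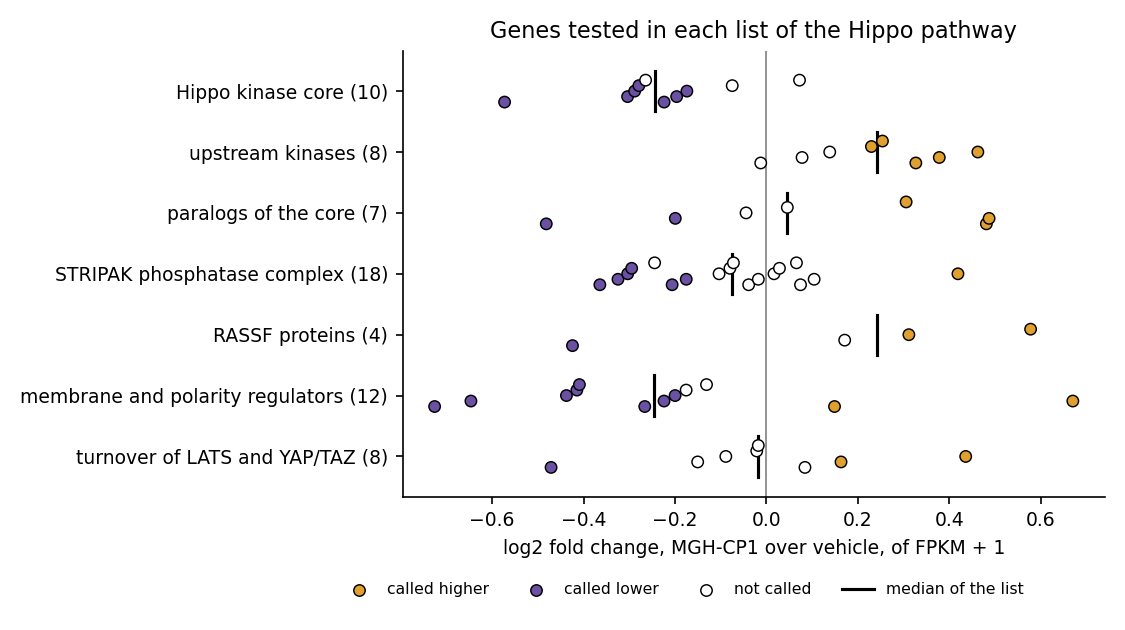
Log2 fold change of FPKM + 1 for every tested gene of the core and of 6 further lists, 1 point per gene and a bar at the median of each list, with the number tested in parentheses. The medians range from -0.25 in the membrane and polarity regulators and -0.24 in the core to 0.24 in the upstream kinases and the RASSF proteins.

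The classical TEAD targets that the study measured give a scale for these changes. CYR61 fell by 0.75 on the log2 scale (SE 0.05, limma adjusted p = 3.3e-05), from 376 to 222 FPKM. No promoter window was found for CYR61. CTGF fell by 0.66 (SE 0.06, limma adjusted p = 0.000102), from 94.05 to 59.27 FPKM, and ANKRD1, whose promoter window held 2 motif matches, fell by 0.66 (SE 0.05, limma adjusted p = 5.9e-05), from 119 to 75.2 FPKM. The value for WWC1, -0.57, lay next to these, and the other called members, at -0.30 to -0.17, lay nearer to 0.

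Over the 4 libraries, the pathway genes whose centred log2(FPKM + 1) values lay nearest to those of LATS2 were PARD3, at a Euclidean distance of 0.0427, PPP2R1B, at 0.0703, and STK26, at 0.081. The nearest to WWC1 were FRMD6, at 0.0756, WWC2, at 0.103, and NEDD4, at 0.132. These are the closest of 57 genes compared, and each distance rests on the same 2 libraries per group.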

How the data were processed

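Per the labels, MDA-MB-231 cells received vehicle or MGH-CP1 for 24 h, 2 libraries each. The deposited table gives FPKM for 48162 genes, beside each symbol, its coordinates and a fixed gene length. The submitters' processing notes name CASAVA 1.8, STAR and hg19. The counting tool and its strand setting are not given in the sources used here. FPKM times length was a whole multiple of 1 step per library for 100% of values, within 0.01 fragment, so fragments were recovered.

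From the deposited FPKM, log2(FPKM + 1) was fitted for the 12080 genes averaging 1 FPKM or more, with limma 3.58.1 in R 4.3.3 (two-sided, lmFit and eBayes, a variance trend, prior degrees of freedom 5.97, Benjamini-Hochberg adjustment, threshold 0.05). Paralog ratios used exact permutation tests (scipy 1.17.1). Intervals cover library spread only. The script was tested on simulated data.

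The members and lists were chosen with earlier results of these data known. Named genes are the members, CYR61, CTGF, ANKRD1, genes overlapping a member, the 2 largest rises and 2 largest falls per list among called genes without overlap between groups, and the 3 genes nearest to LATS2 and to WWC1. STK26 is listed as MST4 and was matched by gene identifier. Alternatives were a pseudocount of 0.1, a minimum mean of 5 FPKM, no filter, quantile normalization, median-ratio scaling, a replicate block, no variance trend, no shared variance, voom, thinning, each library left out and, added after seeing the data, removal of the length trend.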

Additional observations from a re-analysis of the deposited data

Results flagged for a closer look

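ALB, the liver gene for albumin and a marker chosen for cells that do not belong in this line, had 102 recovered fragments in MGH-CP1 replicate 2. It had 3 in MGH-CP1 replicate 1 and 0 in both vehicle libraries, so the signal stood above the level of the controls. ALB is not a core gene, but MGH-CP1 replicate 2 is among the 2 treated libraries of every core gene comparison. Leaving out either MGH-CP1 library leaves 1 treated library, so such a fit cannot show what part the ALB signal had. The members' median log2 fold change was -0.22 without MGH-CP1 replicate 2 and -0.24 without MGH-CP1 replicate 1. The part of the ALB signal in the core gene results was not tested.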

How the results depend on the processing

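No member changed direction under any alternative tried. The number of members called lower was 7, and it was 2 with no filter (24878 genes tested), 0 with no shared variance and 3 to 6 when each library was left out. With no filter LATS1, STK3, STK4, MOB1A and TAOK1 lost their calls, and the percent of all genes called was 9.16% higher and 7.41% lower, against 27.1% and 23.8%. With no shared variance these were 0.0745% and 0.0331%, and the counts called higher and lower were 0 in every list. The members' median of -0.24 was -0.29 under median-ratio scaling and -0.25 to -0.19 with libraries left out. STK4 also lost its call without the variance trend (limma adjusted p = 0.0648) and under quantile normalization (0.0501), where NF2 was lower (0.0236).
In the lists, leaving out each library gave 1 to 2 paralogs lower, 3 to 5 STRIPAK genes lower, 1 membrane and polarity regulator higher and 1 to 2 turnover genes higher. Membrane and polarity regulators called higher were 1 under thinning, median-ratio scaling and no variance trend. Turnover genes called higher were 1 under length trend removal, median-ratio scaling and no variance trend, and those called lower were 2 under length trend removal, median-ratio scaling and quantile normalization. The causes were not tested. Where a library was left out, the lone library of its group was assumed to vary like the other group.
With the replicate block, 3466 genes were higher and 3052 lower, against 3273 and 2869, and the same 7 members were lower, with a median of -0.24. The libraries share only a number: the correlation of same-numbered deviations was 0.0777 over 2 pairs, and the labels name no pairing. NF2 had the fewest fragments of the members, 194 to 422 per library, and its log2 fold change was -0.26 both at full depth and after thinning.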
